A study of Mus musculus with 11 samples.

Results

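The activating arm of the mammalian circadian clock was followed in mouse airway through 5 genes, of 21899 listed: Arntl, which encodes BMAL1, its paralog Arntl2, the partner genes Npas2 and Clock, and Rora. They were taken as the rows whose Ensembl identifiers belong to these symbols, and they were proposed with the FPKM of all 3 groups in view, that is, they were chosen by their measured levels in these groups, so their own values are given as a description. Counts of members called by the fit across all genes are printed only beside the share of all genes called, and nothing is read from them in any comparison. FPKM is a count of fragments divided by exon length and scaled to the total of the library.

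RNA came from airway freed by blunt dissection, according to the methods of the study without the trachea, whereas the sample labels name trachea. Wild-type male BALB/c mice, 6 to 8 weeks old when purchased, made up 3 groups, PBS (3 libraries), OVA/LPS/Vehicle (4 libraries) and OVA/LPS/GGsTop (4 libraries). In the exacerbation model, ovalbumin (OVA) was used for sensitization on days 0 and 7 and for challenge from day 14 to day 17, and lipopolysaccharide (LPS) followed on days 19 and 21. GGsTop, an inhibitor of γ-glutamyl transferase, or its vehicle was given on days 21, 22 and 23 at 0.5 mg/kg, and the endpoint was day 25. The hour of collection was not given in the sources used here. Libraries of the OVA/LPS/Vehicle group carry the labels 12, 34, 56 and 78, and the others are numbered from 1. No source used here says whether libraries came from single or pooled mice, so p-values measure only the spread between these samples.

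BMAL1 pairs with CLOCK, or with its paralog NPAS2, and the pair binds E-box elements to drive Period, Cryptochrome, REV-ERB and PAR bZIP genes. Period and Cryptochrome proteins then repress the pair, while REV-ERB receptors repress and ROR receptors activate Arntl, Npas2 and Clock through shared response elements. In lung this loop runs in club cells and other cell types, and Arntl and the E-box-driven genes normally peak at opposite phases of the day.

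The depth implied by the FPKM was 14513143 to 18632390 fragments per library. GC-rich genes stood higher in the library PBS 3 than in any other (slope 0.533 log2 per 10 GC points, against 0.0484 to 0.0611 in PBS 1 and 2), lower in the OVA/LPS/Vehicle libraries (−0.261 to −0.19) and near level in the OVA/LPS/GGsTop libraries (0.0464 to 0.108). Values after a correction for GC content are therefore given beside the deposited ones. All 8 airway epithelium markers were detected in every library, with a summed level of 27300 to 50200 FPKM, and the 6 alveolar markers summed to 4640 to 16300 FPKM. Of the 5 cartilage markers, Col2a1, Acan, Matn1 and Cnmd were each listed at 0 in at least 1 PBS library. The 6 thyroid markers summed to 93.5, 178 and 318 FPKM in OVA/LPS/Vehicle 12, 34 and 56, but to 0.876 in OVA/LPS/Vehicle 78 and to at most 1.68 elsewhere. Mitochondrial genes took 14.5 to 19.5% of the FPKM in OVA/LPS/Vehicle, above the 7.40 to 11.1% in OVA/LPS/GGsTop and the 2.08 to 10.1% in PBS. The 5 B cell markers summed to 94.3 to 102 FPKM in PBS, 35.7 to 99.6 in OVA/LPS/Vehicle and 32.3 to 62.7 in OVA/LPS/GGsTop. The part of these differences in the results was not tested. Because of the thyroid markers, members were also compared with OVA/LPS/Vehicle 78 as the only library of its group.

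The sequences around the transcription starts of the 5 genes were read from RefSeq windows on GRCm38.p6, each holding 250 bases before and 50 bases after a start. All 5 symbols matched, with 8 windows in all. The 250 bases before the first Arntl start are shown because Arntl was a member with a large difference between groups, with the pentamer ATTGG in capitals, the reverse of the CCAAT box. The stretch covers chr7:113207215-113207464 on the plus strand and lies upstream of the first exon.
Arntl: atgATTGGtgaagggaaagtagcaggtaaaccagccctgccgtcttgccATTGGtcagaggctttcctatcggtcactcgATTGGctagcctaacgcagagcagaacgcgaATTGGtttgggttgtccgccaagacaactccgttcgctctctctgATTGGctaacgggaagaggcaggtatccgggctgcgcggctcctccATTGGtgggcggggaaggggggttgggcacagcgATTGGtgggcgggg
The pentamer occurred 7 times in this stretch and 8 times in the whole window of 300 bases, counted on both strands. It was chosen after the sequence was read. Of all 32851 windows, 37.4% held it at least once, and 1, the Arntl window itself, held it 8 times or more.

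Motifs of the clock were searched on both strands in the 8 windows. The hexamers AGGTCA and GGGTCA form the core of elements bound by ROR and REV-ERB receptors, CACGTG is the E-box bound by BMAL1 pairs, and TTATGTAA and TTACGTAA are D-boxes bound by PAR bZIP factors. AGGTCA was found in 2 of the 8 windows, against 16.3% of all windows. GGGTCA (13.7% of all windows), CACGTG (7.15%), TTATGTAA (0.938%) and TTACGTAA (0.119%) were found in none of the 8, which says only that these letters are not in these windows. The 30 bases around both matches are shown with the motif in capitals. The Arntl match was at position 32 after its second start, in the 5′ untranslated exon, at chr7:113207524-113207553 on the plus strand. The Clock match was at position −119 from an inner start, in an intron between untranslated exons, at chr5:76303604-76303633 on the minus strand, where TGACCT is AGGTCA on the other strand.
Arntl: ttagggaaggcagaaagtAGGTCAgggacg
Clock: agctttggcctcTGACCTgacagatgacag
The Npas2 window is shown because Npas2 varied with Arntl, over the 190 bases that lie between the first exons of 2 of its transcripts in GENCODE M21, at chr1:39194022-39194211 on the plus strand. It has no capitals because no searched motif was found in it.
Npas2: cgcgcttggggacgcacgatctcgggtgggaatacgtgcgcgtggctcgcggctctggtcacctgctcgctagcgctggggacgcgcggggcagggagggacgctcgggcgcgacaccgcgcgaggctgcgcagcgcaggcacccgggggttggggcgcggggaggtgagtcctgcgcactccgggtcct
The whole windows had a GC content of 72.7% for Npas2, 60.7% and 61.7% for the 2 starts of Arntl, 60.3% for Rora and 43.3% for Arntl2, whose window lay at a start inside the gene, and the median of all windows was 52.7%. The 2 outer windows of Clock were at 76.3% and 76.7% GC and the inner one at 47.0%. A match is a description and no evidence of binding, and no binding data were analysed here.

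Arntl (ENSMUSG00000055116, chr7:113207465-113314126 on GRCm38, plus strand) encodes BMAL1, the subunit that every activating pair of the clock contains through it or its paralog. Its level was 5.89, 5.19 and 5.55 FPKM in PBS 1, 2 and 3. In the OVA/LPS/Vehicle libraries 12, 34, 56 and 78 it was 4.81, 3.59, 3.40 and 3.95 FPKM. In OVA/LPS/GGsTop 1, 2, 3 and 4 it was 1.17, 1.90, 1.54 and 2.26 FPKM. Every OVA/LPS/GGsTop library was thus below every OVA/LPS/Vehicle library, and every OVA/LPS/Vehicle library was below every PBS library. Between 133 and 252 fragments stood behind the OVA/LPS/GGsTop values, against 605 to 778 in PBS. The means were 5.54 ± 0.354 FPKM (SD, n = 3) in PBS, 3.94 ± 0.624 (SD, n = 4) in OVA/LPS/Vehicle and 1.72 ± 0.468 (SD, n = 4) in OVA/LPS/GGsTop. On these means the OVA/LPS/GGsTop level was 56.3% lower than in OVA/LPS/Vehicle and 69.0% lower than in PBS. In bulk tissue, fewer cells that express a gene and less RNA per cell cannot be told apart.

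Npas2 (ENSMUSG00000026077, chr1:39193731-39363236, plus strand) encodes a paralog of CLOCK that can take its place beside BMAL1. The PBS libraries 1, 2 and 3 held 6.53, 5.01 and 7.17 FPKM. The OVA/LPS/Vehicle libraries 12, 34, 56 and 78 held 3.41, 3.42, 3.29 and 3.98 FPKM. OVA/LPS/GGsTop 1, 2, 3 and 4 held 0.859, 1.63, 0.807 and 2.54 FPKM. The groups were again ordered without overlap, with the same order as for Arntl. The libraries differed most relative to their mean within OVA/LPS/GGsTop (coefficient of variation 55.7%, against 17.8% in PBS), where the mean was 1.46 ± 0.812 FPKM (SD, n = 4) and the libraries rested on 61 to 180 fragments. The mean was 6.23 ± 1.11 FPKM (SD, n = 3) in PBS and 3.52 ± 0.313 (SD, n = 4) in OVA/LPS/Vehicle. The OVA/LPS/GGsTop mean was 58.6% lower than that of OVA/LPS/Vehicle and 76.6% lower than that of PBS.

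Within OVA/LPS/GGsTop, libraries 2 and 4 held more Arntl and more Npas2 than libraries 1 and 3. The 6 cardiac muscle markers summed to 2040 and 2350 FPKM in libraries 2 and 4 and to 875 and 557 in libraries 1 and 3. The 6 adipocyte markers summed to 225 and 372 FPKM in libraries 2 and 4 and to 37.5 and 25.6 in libraries 1 and 3. Both sums also ranged widely in the other groups, from 95.3 to 1730 FPKM for cardiac muscle in PBS and from 838 to 1350 in OVA/LPS/Vehicle. For the adipocyte list the range was 37.8 to 316 FPKM in PBS and 220 to 679 in OVA/LPS/Vehicle, with Lep at 0 in a PBS library and Ucp1 at 0 in an OVA/LPS/GGsTop library. In PBS, library 2 held the highest cardiac and adipocyte sums (1730 and 316 FPKM) and the least Arntl and Npas2 (5.19 and 5.01 FPKM). In OVA/LPS/Vehicle, library 56 held the highest cardiac sum (1350) and the least Arntl. Library 12 of that group held the highest adipocyte sum (679) and the most Arntl. Within OVA/LPS/GGsTop, macrophage, cartilage, skeletal and smooth muscle and B cell sums were also higher in libraries 2 and 4, and airway epithelium lower. The part of these markers in the levels of Arntl and Npas2 was not tested.

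Clock (ENSMUSG00000029238, chr5:76209868-76304792, minus strand) encodes the histone acetyltransferase partner of BMAL1. It was at 7.83, 7.85 and 5.72 FPKM in PBS 1, 2 and 3. OVA/LPS/Vehicle 12, 34, 56 and 78 were at 8.67, 9.71, 8.95 and 9.22 FPKM. OVA/LPS/GGsTop 1, 2, 3 and 4 were at 5.98, 6.19, 6.28 and 6.38 FPKM. The OVA/LPS/Vehicle libraries were above those of both other groups, and the OVA/LPS/GGsTop libraries lay inside the range of PBS. Clock has a GC content of 40.9%, below the median of 49.9% over the genes tested, and GC-poor genes stood high in the OVA/LPS/Vehicle libraries. After the correction the Clock difference between OVA/LPS/Vehicle and PBS changed sign.

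Rora (ENSMUSG00000032238, chr9:68653786-69388246, plus strand) encodes a nuclear receptor that activates Arntl. Its level was 4.10, 3.91 and 2.29 FPKM in PBS 1, 2 and 3. It was 3.57, 4.68, 4.15 and 5.13 FPKM in OVA/LPS/Vehicle 12, 34, 56 and 78. It was 4.19, 3.54, 3.61 and 3.72 FPKM in OVA/LPS/GGsTop 1, 2, 3 and 4. The 3 groups overlapped, and PBS 3 was the lowest library. Rora also has a GC content of 40.9%.

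Arntl2 (ENSMUSG00000040187, chr6:146796055-146833529, plus strand) encodes the paralog of BMAL1 and was the least abundant member. Its level ranged from 0.141 to 0.567 FPKM in PBS, from 0.320 to 0.476 in OVA/LPS/Vehicle and from 0.380 to 0.545 in OVA/LPS/GGsTop. All 3 groups overlapped, and the values rested on 15 to 50 fragments per library. Its mean of 0.411 FPKM was under the minimum of 0.5 FPKM for the fit, so that 4 of the 5 members were fitted.

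**Figure D1:**
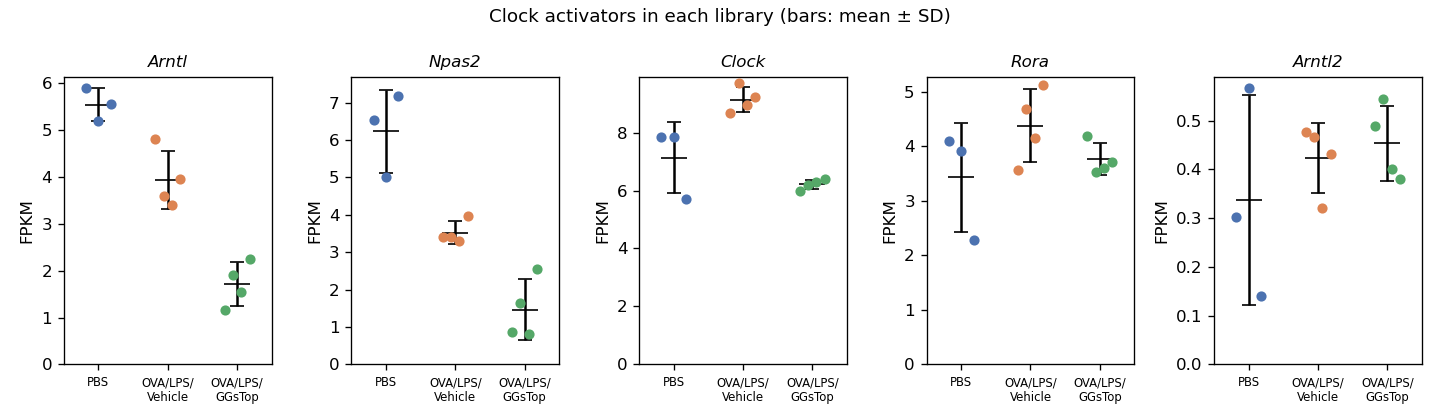
FPKM of each clock activator (vertical axis, from 0) in the 3 groups. Points are libraries and bars are mean ± SD (n = 3 for PBS, n = 4 for the others). Arntl and Npas2 step down from PBS to OVA/LPS/Vehicle to OVA/LPS/GGsTop without overlap, Clock is highest in OVA/LPS/Vehicle, and Rora and Arntl2 overlap between the groups.

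The order of the members by level differed between groups. In PBS the means descended from Clock (7.13 FPKM) to Npas2 (6.23), Arntl (5.54), Rora (3.43) and Arntl2 (0.337), and the ranges of Clock and Npas2, and of Npas2 and Arntl, overlapped. In OVA/LPS/Vehicle they descended from Clock (9.14 FPKM) to Rora (4.38), Arntl (3.94), Npas2 (3.52) and Arntl2 (0.423), with overlap between Rora and Arntl and between Arntl and Npas2. In OVA/LPS/GGsTop the order was Clock (6.21 FPKM), Rora (3.76), Arntl (1.72), Npas2 (1.46) and Arntl2 (0.454), and only Arntl and Npas2 overlapped. Thus Arntl and Npas2 lay above Rora in every PBS library and below it in every OVA/LPS/GGsTop library.

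Ratios of FPKM within a library do not depend on its scaling, but they can depend on its GC slope where the genes differ in GC content. GC content was 40.9% for Clock, 48.2% for Arntl and 52.3% for Npas2, and no ratio was corrected for it. PBS 3, where GC-rich genes stood highest (slope 0.533), held the highest ratios of Npas2 to Clock and of Arntl to Clock. The part of GC content in the ratios was not tested. The ratio of Npas2 to Clock was 0.638 to 1.25 in PBS, 0.352 to 0.432 in OVA/LPS/Vehicle and 0.128 to 0.398 in OVA/LPS/GGsTop, where library 4 (0.398) lay inside the range of OVA/LPS/Vehicle. The ratio of Arntl to Clock was 0.661 to 0.971 in PBS, 0.370 to 0.555 in OVA/LPS/Vehicle and 0.196 to 0.355 in OVA/LPS/GGsTop, with no overlap between groups. Arntl exceeded its paralog Arntl2 by 9.15 to 39.2 times in PBS, 7.69 to 10.6 times in OVA/LPS/Vehicle and 2.40 to 5.96 times in OVA/LPS/GGsTop.

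Arntl was also set against a gene that represses it and a gene that it drives. Nr1d1 encodes REV-ERBα, the receptor that represses Arntl. The ratio of Arntl to Nr1d1 was 0.0211, 0.0479, 0.0267 and 0.0530 in OVA/LPS/GGsTop 1, 2, 3 and 4, and 0.233 to 0.495 in OVA/LPS/Vehicle. In PBS 1, 2 and 3 it was 0.873, 0.201 and 0.683, with PBS 2 below every OVA/LPS/Vehicle library. Dbp, a PAR bZIP factor driven through E-boxes, gave a ratio of Arntl to Dbp of 2.06 to 10.3 in PBS, 0.642 to 1.53 in OVA/LPS/Vehicle and 0.0434 to 0.134 in OVA/LPS/GGsTop. The 3 groups did not overlap in this ratio. That follows from its 2 genes, since Arntl descended and Dbp ascended over PBS, vehicle and GGsTop, each without overlap. Shares of gene pairs whose ratio separates the groups were not computed, here or for Arntl to Clock.

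**Figure D2:**
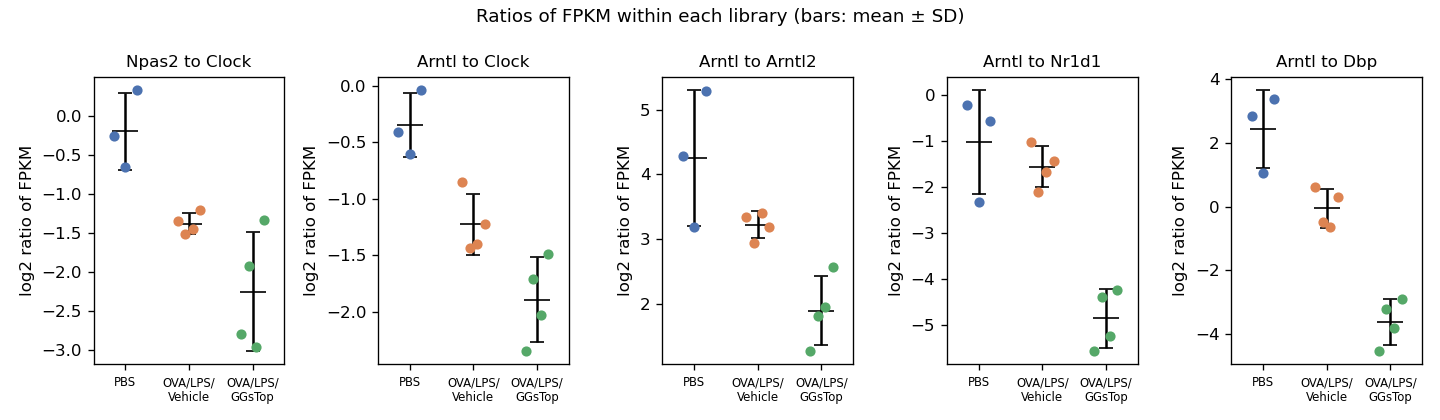
Log2 ratio of the FPKM of 2 genes within each library (vertical axis, each panel with its own range) in the 3 groups. Points are libraries, bars are mean ± SD, and no ratio was corrected for GC content. The ratios of Arntl to Clock and to Dbp are lower in every OVA/LPS/GGsTop library than in any OVA/LPS/Vehicle library, while the ratio of Npas2 to Clock overlaps through OVA/LPS/GGsTop 4.

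The comparison of OVA/LPS/GGsTop with OVA/LPS/Vehicle sets GGsTop beside vehicle in the exacerbation model. These groups also differed in GC slope and mitochondrial share, and the hour of collection was not given. The part of GGsTop apart from these was not tested. Fold changes were fitted with limma on log2(FPKM + 1), a scale that understates changes of low genes, and are given as log2 ± SE. Arntl differed by −0.87 ± 0.135, Npas2 by −0.93 ± 0.198, Clock by −0.49 ± 0.0999 and Rora by −0.17 ± 0.146. After the GC correction the differences were −0.87 for Arntl, −1.04 for Npas2, −0.19 for Clock and 0.13 for Rora, so that Rora changed sign. Of the 4 members fitted, 3 passed an adjusted p of 0.05 in the lower direction, as did 1.81% of all 14004 genes (8.71% passed in either direction), and the values themselves chose the members. The groups of these 3 members did not overlap, as was the case in the lower direction for 12.4% of all genes. Without OVA/LPS/GGsTop 1 the count was 0, without OVA/LPS/Vehicle 34, 56 or 78 or OVA/LPS/GGsTop 3 it was 1, and with OVA/LPS/Vehicle 78 alone it was 0. After the GC correction it was 2, without Clock. The share of all genes called in either direction was 0.171% without OVA/LPS/GGsTop 1, 0.556% without OVA/LPS/GGsTop 3 and 0.4% after the GC correction. Without OVA/LPS/Vehicle 34, 56 and 78 it was 0.443%, 0.25% and 1.68%. Without OVA/LPS/GGsTop 1, 3 members had an unadjusted p under 0.05 in limma, all lower. At that threshold 1128 of all 14017 genes were lower and 2249 higher in the same fit. Arntl kept a negative difference in each of these fits, between −0.96 and −0.77 when a single library was left out.

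The comparison of OVA/LPS/Vehicle with PBS gives the difference that goes with the exacerbation model. Arntl differed by −0.41 ± 0.146, Npas2 by −0.67 ± 0.213, Clock by 0.33 ± 0.108 and Rora by 0.30 ± 0.158. The GC-corrected differences were −0.48 for Arntl, −0.56 for Npas2, −0.15 for Clock and −0.18 for Rora. The signs of Clock and Rora thus turned, and those of Arntl and Npas2 did not. The values chose the members here too, and in the deposited values 2 members passed in the lower direction (22.1% of all genes) and 1 in the higher direction (15.9% of all genes), with 38% of all genes passing in either. The groups did not overlap for the same numbers of members, against 25.4% of all genes in the lower and 18.7% in the higher direction. The count was 0 without PBS 3, without OVA/LPS/Vehicle 34, without OVA/LPS/Vehicle 56, and with OVA/LPS/Vehicle 78 alone, and it was 1 without PBS 1, without OVA/LPS/Vehicle 78, with a pseudocount of 0.1 and after the GC correction. At an unadjusted p under 0.05 in limma, 3 members passed in each fit with a library left out and a count of 0. At that threshold, 3185 of all 14031 genes were lower and 2157 higher without PBS 3. There were 3444 lower and 2710 higher of 14008 without OVA/LPS/Vehicle 34, and 3438 and 2689 of 13991 without OVA/LPS/Vehicle 56. With OVA/LPS/Vehicle 78 alone, Arntl differed by −0.40, Npas2 by −0.53, Clock by 0.34 and Rora by 0.50. The share of all genes called was 21.8% without PBS 3, 31.4% without PBS 1, 38.2% with a pseudocount of 0.1 and 20.8% after the GC correction. Without OVA/LPS/Vehicle 34, 56 and 78 it was 27.4%, 27% and 27.4%.

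The comparison of OVA/LPS/GGsTop with PBS sets treated exacerbated airway beside unexposed airway, and it shares its libraries with the other 2 comparisons. Arntl differed by −1.28 ± 0.146, Npas2 by −1.60 ± 0.213, Clock by −0.16 ± 0.108 and Rora by 0.13 ± 0.158. After the GC correction Arntl was at −1.35, Npas2 at −1.60, Clock at −0.34 and Rora at −0.05. Arntl and Npas2 passed in the lower direction, against 0.821% of all genes (2.88% in either direction), and did not overlap, against 7.54% of all genes. None of the 4 was without overlap in the higher direction, against 7.22% of all genes. The values again chose the members. The count was 2 with any single library left out and 1 when only the PBS and OVA/LPS/GGsTop libraries were fitted. It was 3, with Clock added, after the GC correction and with array weights. Over all genes the share called was 0.2% to 11.3% with a library left out and 0.278% with only these groups. It was 4.25% after the GC correction and 18.3% with array weights. On recovered fragments, a scale without the added 1, the differences in this comparison were −1.73 for Arntl and −2.25 for Npas2.

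**Figure D3:**
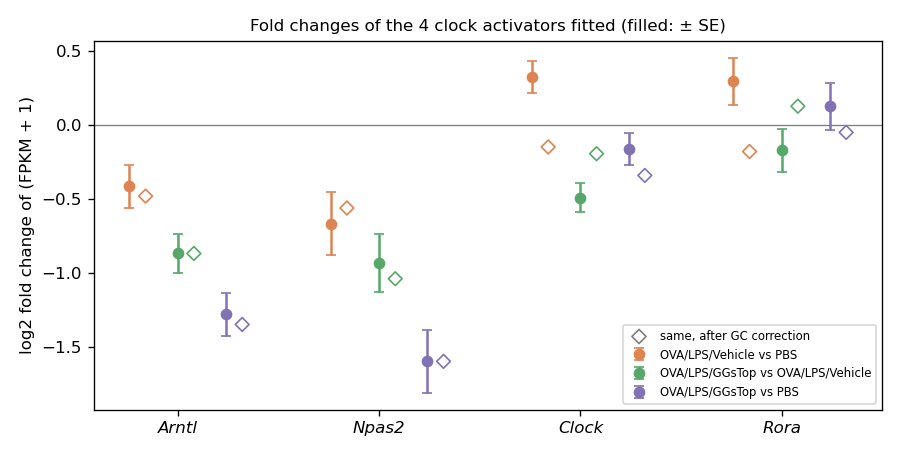
Log2 fold change of (FPKM + 1) for the 4 clock activators fitted (vertical axis) in the 3 comparisons. Filled points with bars are fitted values ± SE and open diamonds are the values after GC correction. Arntl and Npas2 lie below 0 in all 3 comparisons on both scales, whereas the correction moves Rora across 0 in all 3 comparisons and Clock in OVA/LPS/Vehicle against PBS.

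Genes with the pattern most like that of Arntl were ranked over the 11 libraries by the root mean square distance between profiles of log2(FPKM + 1) centred on their mean. The nearest was Gzma, a granzyme of cytotoxic lymphocytes, at a distance of 0.177, and its mean was 12.1, 11.3 and 5.49 FPKM over the groups in the order PBS, vehicle and GGsTop. Npas2 came second at 0.223, followed by the adrenergic receptor gene Adra1a (0.294), Leo1, a subunit of the PAF1 transcription elongation complex (0.298), and Ncr1, a receptor of natural killer cells (0.302). The profile of Arntl itself deviated by 0.554 from its mean. For Npas2 the nearest genes were Arntl (0.223), Adm, which encodes adrenomedullin (0.251), Gzma (0.369), Angptl8 (0.410) and Eln, which encodes elastin (0.412). Adm descended from 19.3 to 8.60 to 5.56 FPKM over the 3 groups.

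The pattern of Arntl with its sign turned was approached most closely by Alas1, the rate-limiting enzyme of haem synthesis, at a distance of 0.187. Alas1 averaged 37.7 ± 3.43 FPKM in PBS (SD, n = 3), 50.6 ± 5.13 in OVA/LPS/Vehicle (SD, n = 4) and 85.4 ± 9.15 in OVA/LPS/GGsTop (SD, n = 4). It was followed by Dnajb13 of motile cilia (0.229), the PAR bZIP factor Tef (0.231), the transcription factor Klf15 (0.232) and Mpp3 (0.249). Turned around, Npas2 was approached most closely by Per3 (0.282), Tef (0.283), Alas1 (0.350), Cd207, which encodes langerin (0.375), and Wee1, a mitotic kinase (0.376). These distances describe 11 libraries in 3 groups and carry no test.

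**Figure D4:**
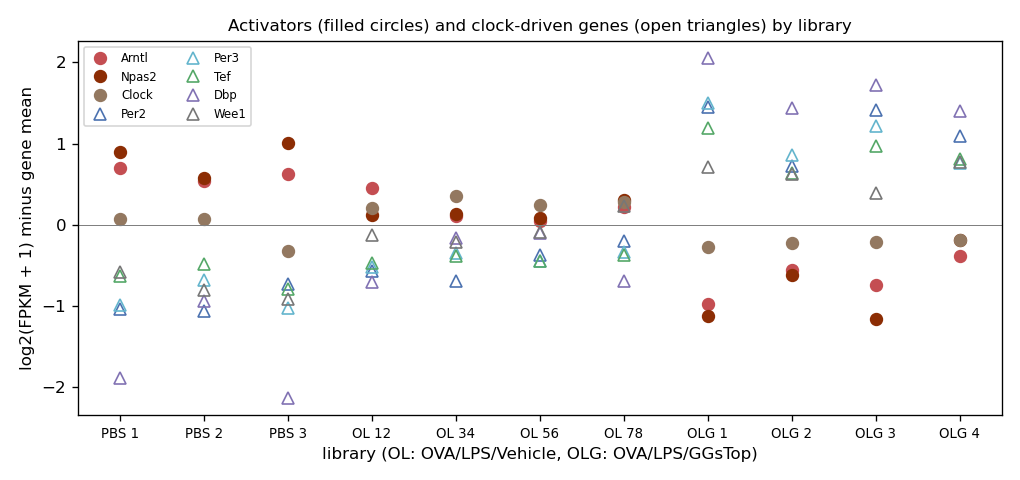
Deviation of log2(FPKM + 1) from the gene's mean (vertical axis) in each of the 11 libraries (horizontal axis). Filled circles are Arntl, Npas2 and Clock, and open triangles are the clock-driven genes Per2, Per3, Tef, Dbp and Wee1. These clock-driven genes were all among those of smallest p in their lists, and others are not drawn. In the 4 OVA/LPS/GGsTop libraries every circle is below 0 and every triangle above it, and in PBS the circles of Arntl and Npas2 are above 0 and the triangles below it. Among the genes not drawn, Nr1d1 was higher in PBS 2 (25.8 FPKM) than in any OVA/LPS/Vehicle library (at most 15.4). Cry1 was lower in every OVA/LPS/GGsTop than in any OVA/LPS/Vehicle library.

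The other genes of the clock were read from 8 lists with 52 genes, of which Rorb and Fbxl21 were under the minimum level and 50 were tested. Between OVA/LPS/GGsTop and OVA/LPS/Vehicle, 15 rose and none fell by limma with Benjamini-Hochberg adjustment, against 6.9% of all genes that rose and 1.81% that fell. At an unadjusted p under 0.05 in limma, 8 were lower and 23 higher, against 1535 lower and 2784 higher of all 14004 genes. With limma voom on recovered fragments, 0 were called lower and 15 higher, against 227 and 954 of 13991 genes. The median log2 fold change of the 50 genes was 0.21 and that of all genes 0.03. Of the 10 repressors, 6 rose, with the smallest p for Per2 (1.63 ± 0.168 log2, adjusted p = 0.00263) and Per3 (1.49 ± 0.157, adjusted p = 0.00263). Their products hold back the BMAL1 pair. The largest rise was that of Nr1d1 (1.98 ± 0.327, adjusted p = 0.0163 by limma). Cry1 was lower in every OVA/LPS/GGsTop than in any OVA/LPS/Vehicle library (−0.395 ± 0.155), but did not pass (adjusted p = 0.116 by limma). After the GC correction 3 repressors passed, all higher. Tef (1.32 ± 0.119, adjusted p = 0.00136) and Dbp (2.07 ± 0.257, adjusted p = 0.00621) rose among 4 PAR bZIP and Nfil3 genes.

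The remaining lists moved less in this comparison. Wee1 (0.68) and Por (0.79) rose among 6 other direct clock outputs, and Sirt6 (0.68) and Cipc (0.41) among 10 coactivators and modifiers of the BMAL1 pair. Csnk1d (0.36), the kinase CK1δ, rose among 9 kinases, and Huwe1 (0.41) among 5 ubiquitin ligases tested, while Gsk3a (0.33) and Tbl1xr1 (−0.34) did not pass. After the GC correction 5 of the 50 genes rose, and none of Wee1, Por, Sirt6, Cipc, Csnk1d and Huwe1 passed (adjusted p = 0.0524, 0.0831, 0.0538, 0.0616, 0.247 and 0.0831 by limma). Without OVA/LPS/GGsTop 1, OVA/LPS/Vehicle 34, OVA/LPS/Vehicle 56 or OVA/LPS/GGsTop 3 the count was 5, 6, 5 and 7, all higher, and with OVA/LPS/Vehicle 78 alone it was 0. In the fits with a library left out, 0.171%, 0.443%, 0.25% and 0.556% of all genes were called, in the same order. Genes also fell in some settings, with 8 lower and 19 higher without PBS 3, and 9 and 19 with only the 2 groups fitted. There were 11 and 24 with array weights, 3 and 17 without PBS 2, and 1 and 13 with libraries scaled to an equal median. Over all genes 25.6%, 25.2%, 37.2%, 13.6% and 4.98% were called in these settings, in the same order.

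Between OVA/LPS/Vehicle and PBS, 14 of the 50 other clock genes rose and 7 fell, against 15.9% and 22.1% of all genes, and the median log2 fold change was 0.19, with −0.01 for all genes. When all libraries were scaled to an equal FPKM total, 7 rose and 12 fell. Nr1d2 (1.64 ± 0.399 log2, adjusted p = 0.0109), which encodes REV-ERBβ, and Per3 (0.49 ± 0.170, adjusted p = 0.0411) rose among the repressors, and Dbp (1.24 ± 0.278, adjusted p = 0.00821) among the PAR bZIP and Nfil3 genes. The groups overlapped for Nr1d2, with PBS 2 at 15.7 FPKM above OVA/LPS/Vehicle 12 at 15.3, while PBS 1 and 3 were at 3.83 and 2.72. Hlf (0.60) did not pass and Wee1 (0.72) and Nampt (0.79) rose among the direct outputs. Sirt6 (−0.98), Gsk3a (−0.62), Huwe1 (−0.50) and Csnk1d (−0.40) fell, and Ube3a (0.92), Kat2b (0.46) and Tbl1xr1 (0.43) rose. Tbl1xr1, Gsk3a, Csnk1d and Nampt did not pass after the GC correction (adjusted p = 0.962, 0.0871, 0.144 and 0.0599 by limma). The count of 21 was 13 without PBS 3, where 21.8% of all genes were called.

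Between OVA/LPS/GGsTop and PBS, 12 of the 50 rose and none fell by limma, against 2.06% and 0.821% of all genes, with a median of 0.24 and of 0.01 for all genes. At an unadjusted p under 0.05 in limma, 2 were lower and 19 higher, against 1371 lower and 1502 higher of all 14004 genes. With limma voom 0 were called lower and 12 higher, against 92 and 248 of 13991 genes. Of the 10 repressors 7 rose, among them Per2 (2.12 ± 0.182 log2, adjusted p = 0.000266) and Per3 (1.98 ± 0.170, adjusted p = 0.000266). Tef (1.54 ± 0.129, adjusted p = 0.000266) and Dbp (3.31 ± 0.278, adjusted p = 0.000266) were among 3 that rose of 4 PAR bZIP and Nfil3 genes. Wee1 (1.39) and Cipc (0.57) rose, and none of the kinases or ubiquitin ligases passed. Values that did not pass were 0.73 for Cdkn1a, 0.67 for Prkaa2, −0.29 for Gsk3a, 0.33 for Ube3a, −0.09 for Fbxw11, 0.36 for Med1 and −0.07 for Hdac3. With PBS and OVA/LPS/GGsTop libraries paired by their number as a replicate block, 5 of the 50 rose. Without PBS 1, without OVA/LPS/GGsTop 1, and with only these 2 groups fitted, 5 also rose. Over all genes the share called was 0.678% with the block, 0.2% without PBS 1, 0.257% without OVA/LPS/GGsTop 1 and 0.278% with only these 2 groups.

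**Figure D5:**
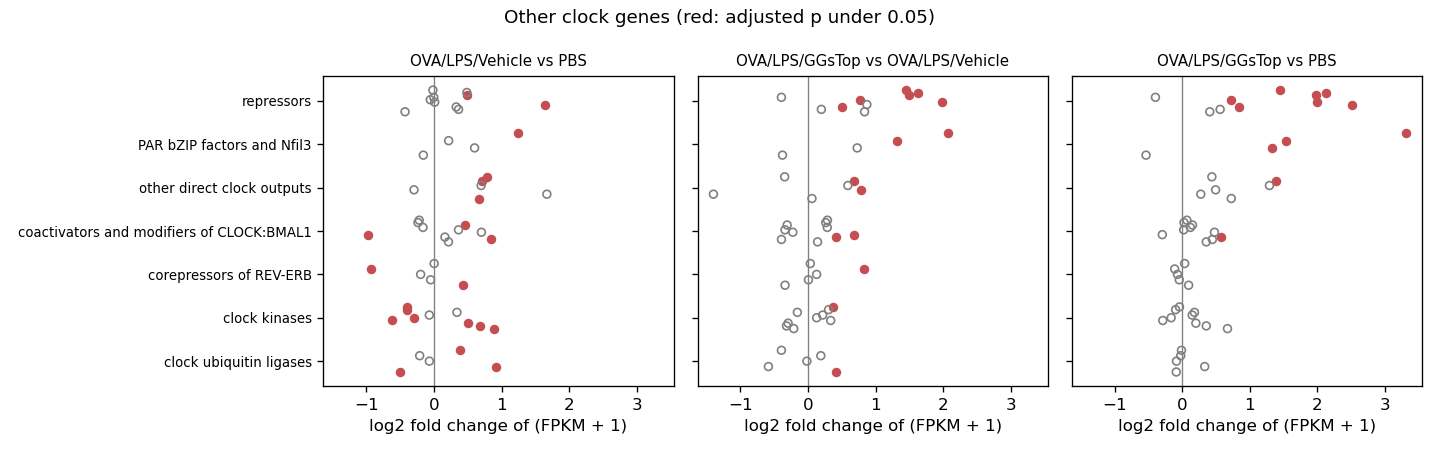
Log2 fold change of (FPKM + 1) (horizontal axis) of the other clock genes tested in 7 of the 8 lists (vertical axis), in the 3 comparisons. Each point is a gene, red at an adjusted p under 0.05 and open otherwise. The red points of the 2 comparisons with OVA/LPS/GGsTop lie above 0, and those of OVA/LPS/Vehicle against PBS lie on both sides.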

How the data were processed

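The authors deposited FPKM for 21899 mouse Ensembl genes in 11 libraries of poly(A) RNA. The submitters' processing notes name cutadapt 1.15, HISAT2 2.0.5, HTSeq 0.9.1 and the build mm39, without giving their settings. Symbols, exon lengths and coordinates were taken from GENCODE M21 on GRCm38, which matched 21846 identifiers. FPKM times exon length came out as whole fragments (within 0.05, for values up to 300 fragments) for 98.9% of them, which gave fragments and depth. Intervals of counting error were not computed.

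Libraries were grouped by their labels. For the 14004 genes whose mean reached 0.5 FPKM, log2(FPKM + 1) was modelled in limma 3.58.1 (R 4.3.3), all 11 libraries in 1 fit with a mean-variance trend, and two-sided p-values were adjusted by the Benjamini-Hochberg method. Calls were made at an adjusted p under 0.05. The fit was tested on simulated data. The study's own count test was not used, since FPKM were deposited, and limma voom on recovered fragments was run as an alternative. GC content was corrected for by subtracting, in each library, a natural spline (5 degrees of freedom) on the GC content of the longest transcript.

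The members and gene lists were chosen with earlier results of these data known. The genes named were the 5 members, the 2 genes of smallest p from every other clock list and comparison, and the 5 nearest and 5 nearest sign-turned profiles of Arntl and of Npas2. Some results under this rule are not reported here. Nr1d1 and Dbp served for ratios, Nr1d1 is also named as the repressor with the largest rise, and Cry1 as a repressor that was lower. Other genes named are list members under the minimum level or at 0. Alternatives were another pseudocount, minimum level, scaling, GC correction, no trend, array weights, only the compared groups, limma voom on recovered fragments, a replicate block and each library left out. Using only OVA/LPS/Vehicle 78 was added after seeing the data. Deviations of PBS and OVA/LPS/GGsTop libraries with the same number correlated across genes at 0.367, 0.427 and 0.428. In the replicate block these numbers were therefore treated as pairs, and every other fit was unpaired. This pairing comes from the data and not from the labels, and PBS 1 and PBS 2 correlated more strongly with OVA/LPS/GGsTop 3 (0.457) and 4 (0.637). Python 3.11.15, numpy 2.4.6, pandas 2.3.3 and matplotlib 3.10.9 served for tables and figures.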

Additional observations from a re-analysis of the deposited data

Results flagged for a closer look

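Among 60 groups of 4 libraries over 30 genes (the 5 activators and the other clock genes named by smallest p), 1 library stood apart from the rest of its group. Kat2b, which encodes an acetyltransferase that serves as a coactivator of BMAL1 pairs, was at 21.1 FPKM in OVA/LPS/GGsTop 1, and the other libraries of that group lay between 19.6 and 19.7 FPKM. The gap was 0.886 of the range of the group, above Dixon's 95% critical value for 4 libraries, which chance exceeds in about 1 of 20 groups.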

How the results depend on the processing

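Of 268 fold changes of the 4 fitted activators over 24 alternative settings, 250 moved by less than the residual spread between libraries and 17 by more. The remaining 1, called in the deposited values, reversed, that of Clock between OVA/LPS/Vehicle and PBS (−0.15 after the GC correction). Part of the 250 could not move. A change of the minimum level, the trend or the groups fitted leaves these fold changes as they are, and so does leaving out a library of the group not compared. Rora, not called in any comparison, changed sign after the GC correction in all 3, and between OVA/LPS/GGsTop and PBS also with array weights (−0.05) and without PBS 3 (−0.07). Counts of activators called ranged from 0 to 3 (OVA/LPS/GGsTop against OVA/LPS/Vehicle), 0 to 3 (OVA/LPS/Vehicle against PBS) and 2 to 2 (OVA/LPS/GGsTop against PBS) when 1 library was left out. With OVA/LPS/Vehicle 78 alone, assumed to vary like the other groups, the first 2 counts were 0, with 0 genes of all called by limma in the first comparison (191 lower and 659 higher at an unadjusted p under 0.05) and 4 (1 lower, 3 higher) in the second. A pseudocount of 0.1 and the GC correction each gave 1 for OVA/LPS/Vehicle against PBS, and fitting only the 2 groups gave 1 for OVA/LPS/GGsTop against PBS. Counts of other clock genes called ranged from 5 to 27, 13 to 28 and 5 to 16 in the same order when 1 library was left out, and they were 0 in the first 2 comparisons with OVA/LPS/Vehicle 78 alone. In the comparison of OVA/LPS/GGsTop with OVA/LPS/Vehicle they were 5 after the GC correction, 28 with only the 2 groups (9 lower) and 35 with array weights (11 lower). Over all genes 0.4%, 25.2% and 37.2% were called in these settings, in the same order. Array weights gave 35 for OVA/LPS/Vehicle against PBS, where 56.5% of all genes were called. Only the 2 groups gave 5 for OVA/LPS/GGsTop against PBS, where 0.278% of all genes were called. The replicate block gave 5 other clock genes and 2 activators for OVA/LPS/GGsTop against PBS, with Arntl at −1.38 and Npas2 at −1.80. Together with the GC correction it gave 14 other clock genes, where 2.6% of all genes were called. OVA/LPS/GGsTop 4 has no PBS partner, so it adds nothing to the fold changes of the block, which equal those without that library. Without the GC correction the block changed no call of an activator made by the fit of all 11 libraries. Against the fit of only these 2 groups it added Npas2 (adjusted p = 0.0306 with the block and 0.0575 without it, by limma). Clock, called after the GC correction alone, was not called with both the correction and the block (adjusted p = 0.0331 and 0.108 by limma). Over all genes, 254 fell and 966 rose between OVA/LPS/GGsTop and OVA/LPS/Vehicle, against 354 and 344 with libraries rescaled to the same median, 155 and 2026 with the same FPKM total, and 22 and 34 after the GC correction. The same FPKM total moved the median of all genes between OVA/LPS/Vehicle and PBS from −0.01 to −0.15 log2, with 4570 lower and 1232 higher against 3096 and 2231, and for OVA/LPS/GGsTop against PBS gave 243 and 250 against 115 and 288. The cause of these changes was not tested. Values under about 1 FPKM, as for Arntl2 and the lowest Npas2 libraries, rest on few fragments.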
